A study of Mus musculus with 16 samples.

Results

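The 10 genes described here encode the proteins that release calcium from the endoplasmic reticulum, pump it back and sense how full the store is: the ryanodine receptors Ryr1, Ryr2 and Ryr3, the IP3 receptors Itpr1, Itpr2 and Itpr3, the SERCA pumps Atp2a2 and Atp2a3, and the store sensors Stim1 and Stim2. They were chosen by name from a table of 35328 genes, and all 10 were matched by their Ensembl identifiers and passed the filter on low counts. Bulk RNA-seq was made from the dorsal hippocampi of 16 male C57Bl6/J mice, in 4 groups of 4. Treatment began at 8 to 9 weeks of age, and the mice drank either plain water or caffeine at 0.3 g/L for 2 weeks. The HC_water and HC_Caffeine mice were taken from their home cage. The MWM_water and MWM_Caffeine mice were trained for 3 days in the Morris water maze, in which a mouse learns the place of a hidden platform, and were killed 1 hour after the last trial. A trained mouse differs from its home cage control in swimming, handling and learning together, which cannot be told apart.

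Neurons keep a releasable calcium pool in the endoplasmic reticulum. Ryanodine receptors open when cytosolic calcium rises and so amplify calcium entry, while IP3 receptors open when phospholipase C makes inositol trisphosphate downstream of receptors such as the metabotropic glutamate receptors. SERCA pumps use ATP to refill the store, and STIM proteins sense its depletion and open Orai channels in the plasma membrane. In the hippocampus these proteins shape dendritic and spine calcium signals and forms of synaptic plasticity. Caffeine is also a classical laboratory opener of ryanodine receptors, at concentrations far above those reached by drinking it.

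Libraries held 23078094 to 49949281 counts. Levels are given as CPM, counts scaled to a common library total with TMM factors, and levels of different genes are compared only as CPM per kb of exon. Egr2, an immediate early gene of neuronal activity, rose with training by 3.45 ± 0.19 (log2 fold change ± SE, adjusted p = 1.70e-08) and so checked the training labels. No marker of the 12 cell type lists examined was at 0 in any library, the neuronal and hippocampal ones included. The summed level of 10 choroid plexus markers ran from 936 to 2379 CPM in mice 8, 11 and 20 of HC_water and from 116 to 507 CPM in the other 13 mice. Mouse 17 of HC_Caffeine had the highest mitochondrial share of counts (4.49%, against 3.23% to 3.89% in the others) and lay at an end of the first principal component, which held 18.4% of the variance. Mouse 24 of MWM_water had the most oligodendrocyte marker RNA (11976 CPM summed over 8 markers, against 4987 to 8991 CPM). In bulk tissue, fewer cells of a type and less RNA per cell cannot be told apart.

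Per exon length, the 10 genes spanned more than 2 orders of magnitude, and 1 gene of each family supplied most of its transcripts. Atp2a2, which encodes the widely expressed pump SERCA2, stood above all others at 133 ± 9.4 CPM per kb (mean ± SD, n = 16). Stim2, the sensor that responds to small losses of store calcium, followed at 30.4 ± 2.4 CPM per kb, and Itpr1, the principal IP3 receptor of neurons, at 26.9 ± 3.1 CPM per kb. Ryr2, the cardiac type that is also the main ryanodine receptor of brain, came next at 14.2 ± 2.0 CPM per kb. Ryr3 reached 8.62 ± 0.93 and Stim1 7.58 ± 0.22 CPM per kb. Below these lay Itpr2, an IP3 receptor prominent in astrocytes, at 2.09 ± 0.15, the skeletal muscle type Ryr1 at 1.84 ± 0.30, and Atp2a3, which encodes the SERCA3 pump of blood and endothelial cells, at 1.47 ± 0.23 CPM per kb. Itpr3, an IP3 receptor of epithelial and secretory cells, was lowest at 0.525 ± 0.115 CPM per kb. Some neighbours in this order were not separated in every mouse: Stim2 exceeded Itpr1 in 13 of 16, Ryr3 exceeded Stim1 in 14, Itpr2 exceeded Ryr1 in 12 and Ryr1 exceeded Atp2a3 in 12. The other neighbours kept their order in all 16 mice. The order also depended on the length used, since Stim1 moved from the sixth to the fourth place (33.1 CPM per kb) when the longest coding sequence replaced the exon union.

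**Figure D1:**
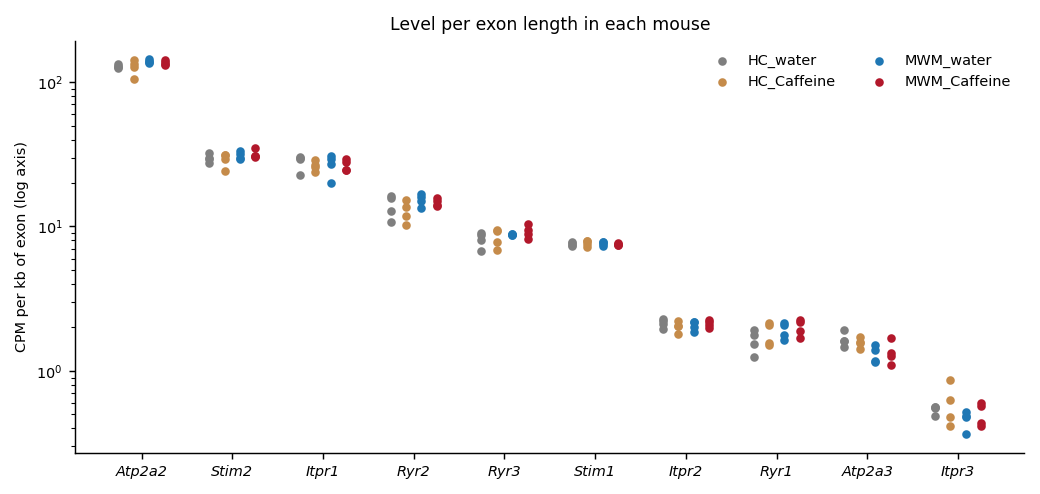
Level of each gene in each of the 16 mice, as CPM per kb of exon on a log axis, with genes ordered by their mean and colours marking the 4 groups (4 points each). Atp2a2 lies near 133 CPM per kb and Itpr3 near 0.525, and the groups of a gene lie close together beside the distance between genes.

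Within each family, 1 gene dominated in every group. Of ryanodine receptor transcripts per exon length, Ryr2 made up 57.4% ± 3.4 (SD, n = 16), Ryr3 35.1% ± 3.0 and Ryr1 7.45% ± 0.88. Mouse 17 of HC_Caffeine stood apart with 46.8% Ryr2, 43.4% Ryr3 and 9.80% Ryr1. Itpr1 was 91.1% ± 0.64 of IP3 receptor transcripts, with 7.11% for Itpr2 and 1.80% for Itpr3. Atp2a2 was 98.9% ± 0.22 of the SERCA pair, and Stim2 was 79.9% ± 1.1 of the STIM pair. The share of Atp2a3 in the SERCA pair ran from 1.13% to 1.43% in HC_water, 1.06% to 1.63% in HC_Caffeine, 0.836% to 1.05% in MWM_water and 0.825% to 1.20% in MWM_Caffeine. It was thus higher in every HC_water mouse than in any MWM_water mouse, while HC_Caffeine and MWM_Caffeine overlapped. In CPM, Atp2a3 itself overlapped between HC_water and MWM_water, while Atp2a2, the rest of the pair, did not. Of all genes tested, 6.99% did not overlap in CPM between these groups.

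Training was compared with the home cage to ask which store genes respond to spatial learning, under water, under caffeine, and averaged over both. Of the 10 genes, Atp2a3 passed the threshold, and only in the averaged comparison, where it was lower after training by 0.27 ± 0.09 (log2 fold change ± SE, edgeR quasi-likelihood test, Benjamini-Hochberg adjusted p = 0.0706). The other 9 genes were not called in any comparison. In the averaged comparison 1 of 10 members was called, beside 14.5% of the 17830 genes tested, and 6.71% of all genes were called lower, so the count of members is near the background. At an unadjusted p under 0.05 there were 2 members, Atp2a3 and Atp2a2, beside 25.5% of all genes. DESeq2 called the same member there.

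Under water alone edgeR called 0 of 10 members beside 0.970% of all genes, with 1 member (Atp2a3) at an unadjusted p under 0.05 beside 11.8% of all genes. Under caffeine alone it called 0 of 10 beside 5.28%, with 0 at an unadjusted p under 0.05 beside 18.8% of all genes. DESeq2 also called 0 members in each of these comparisons. Only Atp2a2 did not overlap between groups under water, where 6.99% of all genes did not overlap, and 0 members separated the groups under caffeine, where 10.9% did. The median log2 fold change of the 10 members in the averaged comparison was 0.05, beside -0.01 over all genes tested.

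**Figure D2:**
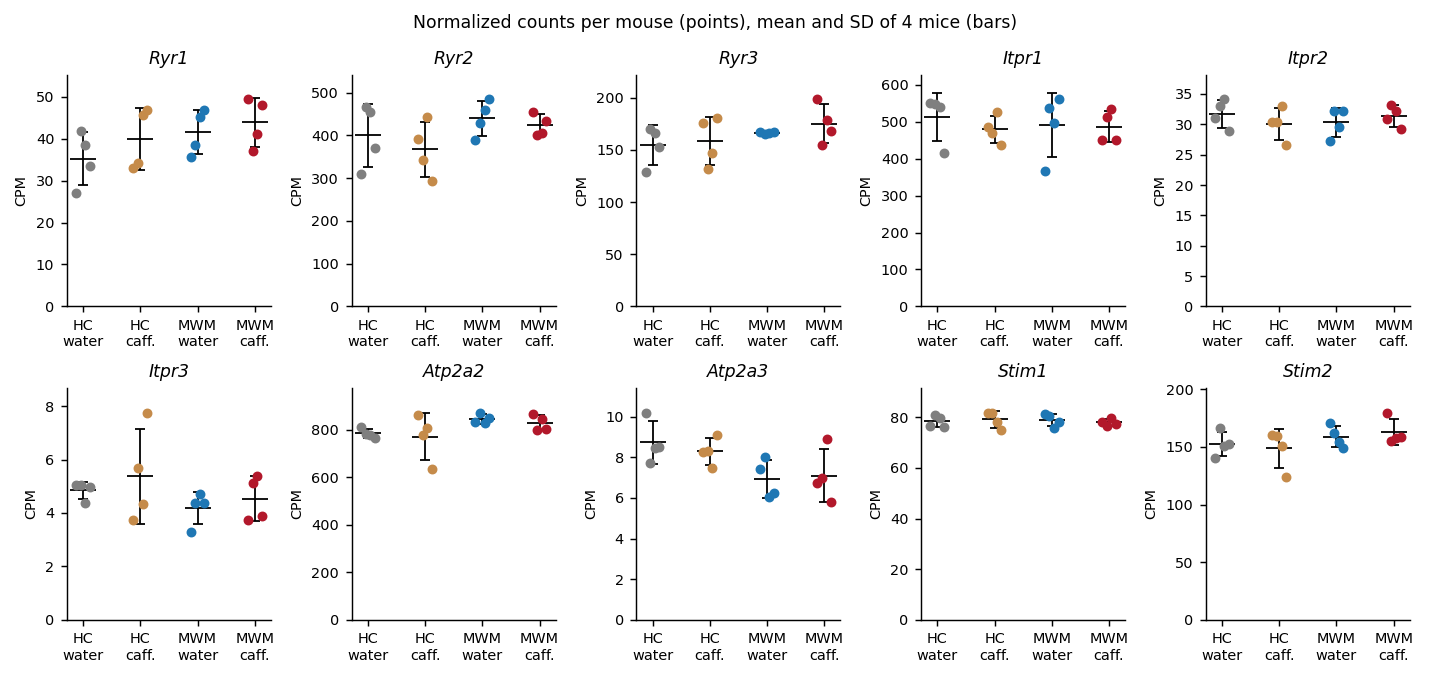
CPM of the 10 genes in each mouse (points) with the mean and SD of the 4 mice of a group (bars), on axes that start at 0. For Atp2a3 the trained groups average 6.93 and 7.10 CPM and the home cage groups 8.73 and 8.29 CPM, with overlapping points, while Stim1 stays between 75.1 and 81.9 CPM throughout.

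Because Atp2a3 was the member called with training, and Ryr2 varied inversely with it from mouse to mouse (values with the pairs of members), the 250 bases upstream of the RefSeq start of each are printed 5′ to 3′ on the gene's strand (GRCm38.p6, the build of mm10), with matches to the SP1 motif in capitals. They lie at chr11:72960919-72961168 (plus strand) and chr13:12106946-12107195 (minus strand).
Atp2a3: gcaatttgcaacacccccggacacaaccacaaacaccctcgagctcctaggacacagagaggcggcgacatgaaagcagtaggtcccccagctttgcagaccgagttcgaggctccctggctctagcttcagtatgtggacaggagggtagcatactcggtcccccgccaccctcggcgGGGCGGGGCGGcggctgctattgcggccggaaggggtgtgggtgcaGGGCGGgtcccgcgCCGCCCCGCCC
Ryr2: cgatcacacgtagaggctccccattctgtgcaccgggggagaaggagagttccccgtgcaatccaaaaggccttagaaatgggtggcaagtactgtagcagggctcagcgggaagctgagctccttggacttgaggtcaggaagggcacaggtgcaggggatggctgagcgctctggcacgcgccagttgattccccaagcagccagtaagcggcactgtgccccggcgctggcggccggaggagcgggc
The Atp2a3 window holds 5 matches to GGGCGG on either strand, 2 neighbouring pairs of which overlap by a base, and the Ryr2 window holds none. Of 32851 RefSeq promoter windows of the same length, 32.7% hold this motif, as do 6 of the 7 members with a promoter in the table (Ryr3, Itpr1 and Atp2a2 had none). The EGR motif GCGNGGGCG, which overlaps an SP1 match where it occurs here, was in 2 of the 7 (Itpr3 and Stim1) and in 4.70% of all windows. The cAMP response element TGACGTCA and the TATA box TATAAA were in 0 of 7, and in 1.55% and 12.4% of all windows. The core TGACG was in 1 (Stim1) and the E-box CACGTG in 1 (Itpr3), against 17.8% and 6.02% of all windows. Both strands were searched.

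The ryanodine receptors are the channels that calcium itself opens. Ryr2 (ENSMUSG00000021313, mm10 chr13:11553102-12106945, minus strand) was measured at 309.7, 466, 455 and 371 CPM in the HC_water mice and at 392, 342, 442 and 294 CPM in the HC_Caffeine mice. In the MWM_water mice it was at 389, 429.5, 460.0 and 485 CPM, and in the MWM_Caffeine mice at 455, 401, 407 and 435 CPM. The 4 lowest values were all in home cage mice (6 and 20 of HC_water, 9 and 17 of HC_Caffeine), but the groups overlapped. The log2 fold change with training was 0.17 ± 0.09 on average (95% interval -0.01 to 0.36, adjusted p = 0.225), 0.14 ± 0.12 under water and 0.21 ± 0.12 under caffeine. Without mice 8, 11 and 20 of HC_water, the libraries high in choroid plexus markers, the averaged differences of Ryr2 (0.36 ± 0.10, adjusted p = 0.0545) and Ryr1 (0.38 ± 0.12, adjusted p = 0.0933) were called, with mouse 6 as the only HC_water mouse left, and it had the lowest Ryr2 and Ryr1 of its group.

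Ryr1 (ENSMUSG00000030592, chr7:29003344-29125179, minus strand), the release channel of skeletal muscle, was detected in all mice with 682 to 2050 counts. It was at 27.1, 41.7, 38.6 and 33.6 CPM in HC_water, at 33.04, 34.1, 45.7 and 46.8 CPM in HC_Caffeine, at 35.7, 38.6, 45.2 and 46.7 CPM in MWM_water and at 49.4, 37.1, 41.1 and 48.0 CPM in MWM_Caffeine. The lowest value belonged to mouse 6 of HC_water and the highest to a trained caffeine mouse, with overlap between all groups. Its averaged training difference was 0.18 ± 0.10 (95% interval -0.02 to 0.39, adjusted p = 0.254), and ran from 0.11 to 0.20 over the 7 alternatives that keep all mice. The antisense gene Gm26604 covers 864 bases of Ryr1 exons on the other strand. The sources used here do not state whether counting used the strand, so how reads in that stretch were assigned is not known.

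Ryr3 (ENSMUSG00000057378, chr2:112631355-113217096, minus strand), a ryanodine receptor of brain and smooth muscle, was at 128, 170.4, 166 and 153 CPM in HC_water and at 176, 131, 147 and 180.0 CPM in HC_Caffeine. The 4 MWM_water mice lay within 165 to 167 CPM (SD 1.19), and the MWM_Caffeine mice were at 198, 155, 179 and 168 CPM. The trained water group was therefore far less spread than the others, whose SDs were 18.3 to 23.3 CPM. The averaged training difference of Ryr3 was 0.12 ± 0.07 (95% interval -0.02 to 0.27, adjusted p = 0.282). Over the 7 alternatives that keep all mice it ran from 0.03 to 0.13. Aven lies on the opposite strand over 916 bases of Ryr3 exons.

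The IP3 receptors open downstream of phospholipase C. Itpr1 (ENSMUSG00000030102, chr6:108213096-108551109, plus strand) was at 551, 549, 539 and 416 CPM in HC_water, 486, 469.6, 526 and 438 CPM in HC_Caffeine, 368, 538, 497 and 561 CPM in MWM_water, and 450.4, 512, 535 and 452 CPM in MWM_Caffeine. The lowest values were those of mouse 24 of MWM_water and mouse 20 of HC_water, and mouse 24 is the one with the highest oligodendrocyte markers and also the lowest sum of 6 CA1 pyramidal markers (412 CPM, against 470.2 to 752 CPM in the others). The part of that tissue makeup in the value was not tested. The averaged training difference of Itpr1 was -0.02 ± 0.08 (95% interval -0.19 to 0.15, adjusted p = 0.897), so that a fold change outside 0.876 to 1.11 lies beyond the interval. Over the 7 alternatives that keep all mice it ran from -0.11 to -0.01 on the log2 scale.

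Itpr2 (ENSMUSG00000030287, chr6:146108299-146502223, minus strand) kept to 26.6 to 34.1 CPM over the 16 mice, with group means of 31.8, 30.1, 30.3 and 31.4 CPM in HC_water, HC_Caffeine, MWM_water and MWM_Caffeine. All groups overlapped, and the averaged training difference was -0.00 ± 0.05 (95% interval -0.11 to 0.11, adjusted p = 0.981). Itpr3 (ENSMUSG00000042644, chr17:27057304-27122223, plus strand) rested on only 127 to 278 counts per library. It was at 5.04, 5.03, 4.38 and 4.97 CPM in HC_water, at 3.73, 5.69, 4.34 and 7.76 CPM in HC_Caffeine, at 3.30, 4.35, 4.69 and 4.36 CPM in MWM_water and at 3.73, 5.12, 5.40 and 3.90 CPM in MWM_Caffeine. The highest value was that of mouse 17 of HC_Caffeine, the library with the highest mitochondrial share. The averaged training difference of -0.23 ± 0.14 (95% interval -0.51 to 0.06, adjusted p = 0.305) did not pass the threshold. Itpr3os, an antisense gene, overlaps 233 bases of Itpr3 exons on the other strand.

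The SERCA pumps refill the store. Atp2a3 (ENSMUSG00000020788, chr11:72961169-72993044, plus strand) was at 10.2, 7.74, 8.48 and 8.52 CPM in HC_water and at 8.24, 8.32, 7.49 and 9.12 CPM in HC_Caffeine. After training it was at 7.42, 8.005, 6.07 and 6.22 CPM in MWM_water and at 6.72, 7.002, 8.89 and 5.81 CPM in MWM_Caffeine. Of the trained mice, 6 lay below the lowest home cage mouse (7.49 CPM), and mouse 33 of MWM_water and mouse 30 of MWM_Caffeine lay among the home cage mice. The difference with training was -0.33 ± 0.13 under water (p = 0.0202, adjusted p = 0.313; exact two-sided permutation test of CPM p = 0.0571) and -0.22 ± 0.13 under caffeine (adjusted p = 0.365; exact permutation p = 0.171). The difference between these responses was 0.11 ± 0.18 (95% interval -0.27 to 0.49, adjusted p = 0.99997). Averaged over treatments the fold change was 0.827 (95% interval 0.724 to 0.944).

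The call for Atp2a3 was lost in 9 of the 16 fits that left out 1 mouse, with adjusted p from 0.0287 to 0.158 and log2 fold changes from -0.34 (without mouse 30 of MWM_Caffeine) to -0.22 (without mouse 6 of HC_water). The mice whose absence ended it were 6, 11 and 20 of HC_water, 2 and 17 of HC_Caffeine, 36 and 38 of MWM_water, and 22 and 40 of MWM_Caffeine. It was also lost at an adjusted p under 0.05, and without mice 6 of HC_water and 17 of HC_Caffeine together (-0.21 ± 0.09, adjusted p = 0.235), which had the highest mitochondrial share of their groups. These mice also had the highest Atp2a3 of their groups (10.2 and 9.12 CPM), so the smaller difference follows from the mice removed. Beside the lower Atp2a3, 9 of 10 choroid plexus markers were called lower after training (median log2 fold change -1.28). So were 5 of 8 microglial (median -0.16), 2 of 8 mural (median -0.15) and 1 of 8 endothelial markers (median -0.14). Of 6 CA1 pyramidal markers 2 were lower and 1 higher (median -0.29). Also lower were 1 of 8 thalamic (median -0.15) and 1 of 8 neuronal markers (median 0.01). Called higher were 1 of 8 dentate granule (median 0.17) and 1 of 8 CA3 and CA2 markers (median 0.07). Of 8 astrocyte markers 1 was higher and 1 lower, and 0 of 8 interneuron and 0 of 8 oligodendrocyte markers were called. Over all genes tested, 6.71% were called lower and 7.81% higher. The summed microglial markers ran from 411 to 466 CPM in HC_water, 433 to 473 CPM in HC_Caffeine, 407 to 442 CPM in MWM_water and 388 to 443 CPM in MWM_Caffeine. The summed endothelial markers ran from 201 to 212 CPM, 177 to 237 CPM, 173 to 196 CPM and 178 to 225 CPM in the same order. The summed choroid plexus markers ran from 309.7 to 2379 CPM, 192 to 507 CPM, 165 to 439 CPM and 116 to 205 CPM. Without mice 8, 11 and 20 of HC_water, which had the high choroid plexus markers, the difference of Atp2a3 was -0.39 ± 0.12 (adjusted p = 0.0785), but that fit keeps only mouse 6 in HC_water, which had the highest Atp2a3 of its group, so its larger size follows from the mouse that is left. The mitochondrial share of counts was also higher in every HC_water mouse (3.55% to 3.89%) than in any MWM_water mouse (3.29% to 3.44%), and ran from 3.46% to 4.49% in HC_Caffeine and from 3.23% to 3.595% in MWM_Caffeine. The part of the markers and of the mitochondrial share in the training differences was not tested.

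Atp2a2 (ENSMUSG00000029467, chr5:122453513-122502225, minus strand) was at 812, 783, 778 and 764 CPM in HC_water and at 832, 872, 828 and 849 CPM in MWM_water. These groups did not overlap (exact permutation p = 0.0286, the smallest that 4 against 4 mice can give), although the edgeR test did not call the difference (0.11 ± 0.07, adjusted p = 0.564). The HC_Caffeine mice were at 864, 779, 807 and 635 CPM and the MWM_Caffeine mice at 866, 800.0, 844 and 805 CPM, and these groups did overlap. Mouse 17 of HC_Caffeine had the lowest Atp2a2 level of the series. The averaged difference was 0.11 ± 0.05 by edgeR's quasi-likelihood test (95% interval 0.00 to 0.21, Benjamini-Hochberg adjusted p = 0.184). It was called when mouse 2 of HC_Caffeine, which had the highest Atp2a2 of its group, was left out (0.15 ± 0.05, adjusted p = 0.0516).

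The STIM sensors showed no called difference. Stim1 (ENSMUSG00000030987, chr7:102267806-102437319, plus strand) was the steadiest of the 10 genes, with a coefficient of variation of 2.87% over the 16 mice and group means of 78.4, 79.2, 79.0 and 78.0 CPM. Its averaged training difference was -0.01 ± 0.03 (95% interval -0.07 to 0.06, adjusted p = 0.937), so that fold changes outside 0.952 to 1.04 lie beyond the interval. Stim2 (ENSMUSG00000039156, chr5:53998499-54121057, plus strand) was at 140.4, 167, 151 and 153 CPM in HC_water, 160.5, 159, 151 and 124 CPM in HC_Caffeine, 171, 162, 154 and 149 CPM in MWM_water and 179.8, 155, 158 and 158 CPM in MWM_Caffeine. Its lowest value was again in mouse 17 of HC_Caffeine. The averaged training difference was 0.10 ± 0.05 (95% interval -0.02 to 0.21, adjusted p = 0.287).

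Caffeine was compared with water to ask whether 2 weeks of caffeine alter these genes at rest or after training. In the home cage edgeR called 0 of 10 members and 0% of all genes. After training it again called 0 of 10 members and 0% of all genes, and the same held for the comparison averaged over both conditions. In all 3 comparisons 0 members reached an unadjusted p under 0.05, beside 3.57%, 3.93% and 4.07% of all genes, and DESeq2 called 0 members, with 19, 7 and 15 called genes in all. No member separated the caffeine from the water mice, where 1.99% of all genes in the home cage and 2.60% after training did. The averaged log2 differences ran from -0.09 ± 0.09 for Ryr2 to 0.14 ± 0.14 for Itpr3, and the ryanodine receptors were at 0.13 ± 0.10 for Ryr1, -0.09 ± 0.09 for Ryr2 and 0.06 ± 0.07 for Ryr3. The 95% intervals of the 10 averaged fold changes lay within 0.828 to 1.34. Of the most abundant member of each family, the interval was 0.828 to 1.07 for Ryr2, 0.857 to 1.08 for Itpr1, 0.914 to 1.05 for Atp2a2 and 0.922 to 1.08 for Stim2.

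The difference between the training response under caffeine and that under water was not called for any member (0 of 10 by edgeR, with 0 at an unadjusted p under 0.05 beside 3.63% of all genes, and 0 by DESeq2). It was also called for 0% of all genes. The point values lay between -0.10 ± 0.20 for Ryr1 and 0.13 ± 0.11 for Itpr2. These intervals are wide, and for Itpr3 they reach from 0.667-fold to 1.47-fold.

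**Figure D3:**
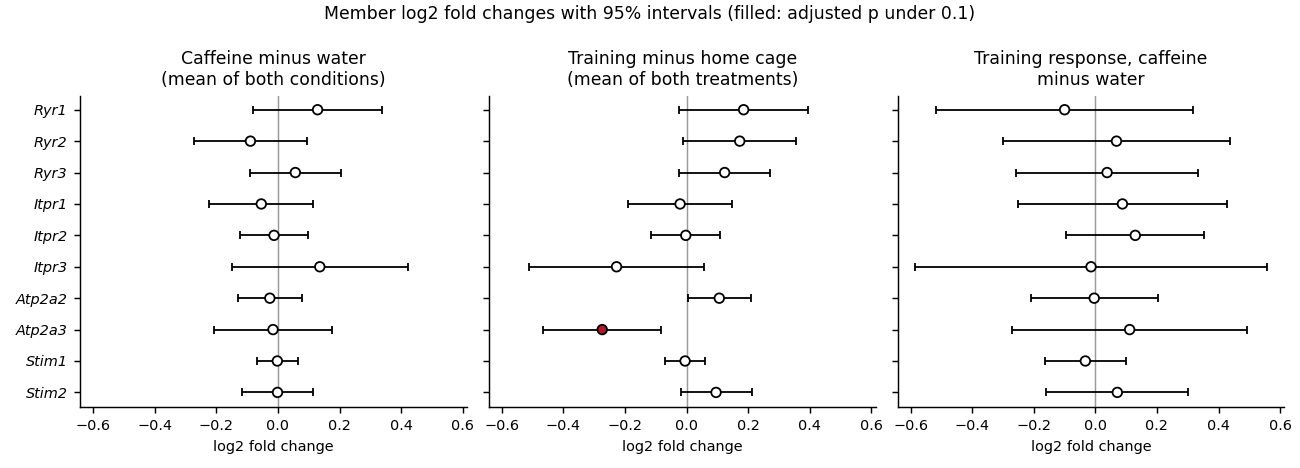
Log2 fold changes of the 10 genes with 95% intervals for caffeine minus water, training minus home cage, and the training response under caffeine minus that under water, with a filled point where the adjusted p is under 0.1. Only Atp2a3 in the training comparison is filled, at -0.27, and most other intervals cross 0; that of Atp2a2 in the training comparison starts at 0.00.

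The members also varied from mouse to mouse within groups. Over 45 pairs of members, with group means removed and labels permuted within groups, Itpr1 and Itpr2 rose and fell together across the 16 mice (Pearson r = 0.840, adjusted permutation p = 0.0153; Spearman rho = 0.800, adjusted p = 0.0340), and r was 0.788 without the 2 mice farthest from the median. Ryr2 and Atp2a3 varied inversely (r = -0.657, adjusted permutation p = 0.0335; rho = -0.676, adjusted p = 0.0340), with r = -0.551 without the farthest 2. These 2 genes differ in exon length (28790 bases for Ryr2, 5281 for Atp2a3). They also differ in the GC content of the longest transcript (49.6% and 57.3%). The part of length and GC content in their relation was not tested. Stim1 and Stim2 varied together (r = 0.759, adjusted permutation p = 0.0648; rho = 0.718, adjusted p = 0.0549), with r = 0.659 without the farthest 2. Itpr3 and Stim2 passed by rank alone (rho = -0.665, adjusted permutation p = 0.0549, against r = -0.697 with adjusted p = 0.214). The other 41 pairs did not pass by either measure. All these values share libraries, depth and scaling. No batch is given in the labels.

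None of the 120 relations between a member and a cell type marker list passed adjustment. The smallest unadjusted p was that of Atp2a3 with 8 dentate granule cell markers (r = -0.738, permutation p = 0.00182, adjusted p = 0.218; rho = -0.744, adjusted p = 0.174). Its inverse partner Ryr2 gave r = 0.714 with the same markers (rho = 0.712, adjusted permutation p = 0.371 for r). Values of like size were r = 0.735 for Stim2 with CA3 and CA2 pyramidal markers (rho = 0.771, adjusted permutation p = 0.371 for r) and r = 0.732 for Atp2a2 with neuronal markers (rho = 0.541, adjusted permutation p = 0.371 for r). Without the 2 mice farthest from the median marker level, r with dentate markers was -0.698 for Atp2a3 and 0.590 for Ryr2. The same check gave 0.766 for Stim2 with CA3 and CA2 markers but only 0.289 for Atp2a2 with neuronal markers. The summed dentate markers ran from 494 to 764 CPM in HC_water, 475 to 783 CPM in HC_Caffeine, 541 to 812 CPM in MWM_water and 553 to 785 CPM in MWM_Caffeine, so the groups overlapped. In the averaged training comparison their median log2 fold change was 0.17, and 1 of 8 was called higher, beside 7.81% of all genes. The part of the dentate share in the inverse relation of Ryr2 and Atp2a3 was not tested. Itpr1 and Itpr2 gave r = -0.686 and -0.527 with oligodendrocyte markers, and 0.598 and 0.629 with microglial markers (adjusted permutation p from 0.371 to 0.394). The part of tissue makeup in their joint variation was likewise not tested.

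**Figure D4:**
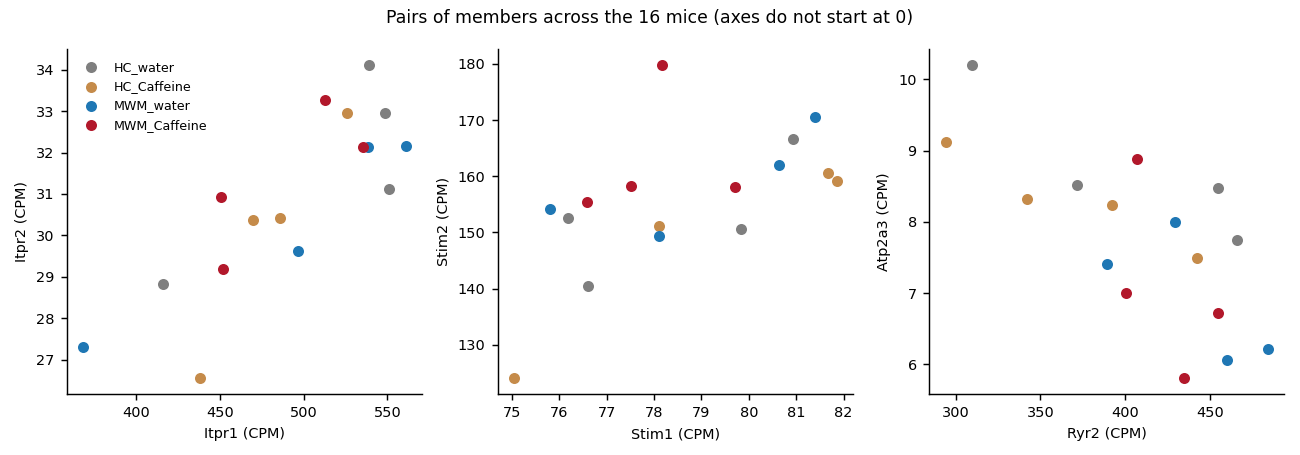
CPM of 3 pairs of members across the 16 mice, coloured by group, on axes that do not start at 0. Itpr1 and Itpr2 (r = 0.840 with group means removed) and Stim1 and Stim2 (r = 0.759) vary together, and Ryr2 and Atp2a3 (r = -0.657) vary inversely.

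The genes whose levels most resembled a member were taken from 13378 expressed genes by Pearson r of log2 CPM over the 16 libraries, as a description. For Atp2a3 they were Fzr1 (r = 0.886), Gnl1 (0.864) and Gnai2 (0.861). For Ryr2 they were Vps13c (0.950), Appl1 (0.942) and Ank3 (0.939), and for Itpr1 Zfp365 (0.959), Ddn (0.921) and Rab27b (0.891). For Atp2a2 they were Uhmk1 (0.972), Slc24a2 (0.950) and Kif3c (0.935), and for Stim2 Klhl2 (0.946), Klf3 (0.933) and Ppp2r2c (0.932). These coefficients include differences between groups and between libraries. By rank the same genes ran from a Spearman rho of 0.682 (Atp2a3 with Gnai2) to 0.947 (Ryr2 with Ank3). For Stim2 with Klhl2 rho was 0.694.

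Of the other genes of the calcium store, 11 were called with training, among them the scaffold gene Homer1, the chaperone gene Hspa5 and the channel gene Tmem38b. Of 124 genes listed in 10 groups (partners of ryanodine receptors, IP3 metabolism, pumps, store-operated entry, lumen buffers, leak channels, mitochondrial uptake, extrusion and lysosomal stores), 119 were in the table and 115 were tested. In the averaged training comparison 7 were higher (6.09%, beside 7.81% of all genes) and 4 lower (3.48%, beside 6.71% of all genes), and their median log2 fold change was -0.02, beside -0.01 over all genes. DESeq2 called 18 of the 115 in place of these 11, and 3002 of all genes in place of 2590.

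Homer1, a scaffold that links IP3 and ryanodine receptors to glutamate receptors, had the largest rise of the 7, from 133 ± 16.1 and 139 ± 25.1 CPM (SD, n = 4) in the water and caffeine home cage groups to 199.6 ± 14.8 and 237 ± 32.8 CPM after training. Its averaged log2 fold change was 0.68 ± 0.09 (adjusted p = 2.42e-04), and it was called under water (0.59, adjusted p = 0.0429) and under caffeine (0.77, adjusted p = 0.00369) as well. Gene counts do not separate the short activity-induced form Homer1a from the long forms. Among IP3 receptor regulators, Bcl2l1, an anti-apoptotic protein that binds IP3 receptors, rose by 0.11 ± 0.04 (adjusted p = 0.0658), and Erp44, an oxidoreductase of the secretory pathway that binds the lumenal side of Itpr1, rose by 0.12 ± 0.04 (adjusted p = 0.0956), a call kept in 11 of 25 alternatives. Itpripl2, a relative of the IP3 receptor interacting protein, fell by 0.26 on the log2 scale (adjusted p = 0.0365). Of the 16 genes tested in this group 3 were higher and 1 lower, beside 7.81% and 6.71% of all genes.

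In the store lumen 2 of 14 genes were higher. Beside this count, and those of the leak and mitochondrial lists that follow, 7.81% of all genes were called higher. Hspa5, the major chaperone of the endoplasmic reticulum, went from 213 ± 50.5 and 227 ± 41.3 CPM in the home cage to 278 ± 23.5 and 331 ± 34.3 CPM after training (0.46 ± 0.10, adjusted p = 0.00936), and the disulfide isomerase Pdia4 rose by 0.33 ± 0.09 (adjusted p = 0.0356). Tmem38b, a potassium channel of the store membrane that balances charge during calcium release, was 1 of 12 leak and counter-ion genes called (0.26 ± 0.05, adjusted p = 0.00539) and was also called under water (0.31, adjusted p = 0.0819). Mcu, the pore of the mitochondrial calcium uniporter, was 1 of 13 mitochondrial genes called (0.15 ± 0.04, adjusted p = 0.0345).

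The 4 lower genes came from 4 lists, and 6.71% of all genes were called lower. Jph2, a junctophilin that tethers the store to the plasma membrane, was 1 of 17 ryanodine receptor partners called and fell by 0.63 on the log2 scale (adjusted p = 0.0502), at a mean of 0.465 to 0.826 CPM per group. Plcd1, a phospholipase C, fell by 0.30 (adjusted p = 0.0286) and was 1 of 12 genes for IP3 production. Orai3, a store-operated channel subunit, fell by 0.14 (adjusted p = 0.0813) and was 1 of 12 entry genes, a call kept in only 9 of 25 alternatives (adjusted p from 0.0564 to 0.284). Of the remaining pumps and their regulators, the extrusion genes and the lysosomal channels, 0 of 6, 0 of 10 and 0 of 3 were called by edgeR.

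Under caffeine 3 of the 115 genes were called higher, Homer1, Hspa5 (0.55, adjusted p = 0.0477) and the phospholipase C gene Plcd4 (2.61%, beside 3.16% of all genes), and 0 lower, beside 2.13% of all genes. Plcd4, named after its values were seen, differed with training by 0.41 ± 0.10 under caffeine (adjusted p = 0.0444) and by -0.15 ± 0.11 under water (adjusted p = 0.610), but the difference between these responses was not called (0.56 ± 0.15, adjusted p = 0.99997). Under water 2 were called higher (Homer1 and Tmem38b, 1.74%, beside 0.639% of all genes) and 0 lower, beside 0.331% of all genes. With caffeine against water 0 of 115 were called in either condition.

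**Figure D5:**
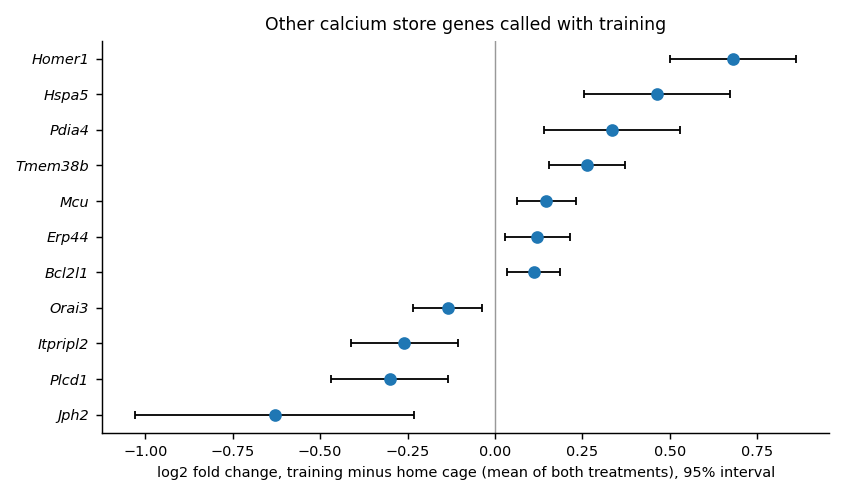
Averaged log2 fold changes with training, with 95% intervals, of the 11 other calcium store genes called at an adjusted p under 0.1. Homer1 is highest at 0.68 and Jph2 lowest at -0.63, with 7 genes above and 4 below 0.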

How the data were processed

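Dorsal hippocampus RNA of 16 mice was sequenced as single-end 50-base reads from stranded poly(A) libraries. The authors aligned reads to mm10 with STAR, kept uniquely aligned reads, counted them per Ensembl gene with HTSeq 0.6.1p1 and deposited raw counts without normalization; whether the counting used the strand is not given in the sources used here. Of 35328 genes, 35247 were matched to GENCODE M21 and 81 were not.

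Counts were tested in R 4.3.3 with edgeR 4.0.16 (TMM, filterByExpr, a mean per group over 16 libraries, quasi-likelihood test, Benjamini-Hochberg over 17830 genes), with calls at an adjusted p under 0.1. DESeq2, the study's tool, was an alternative, run here in version 1.42.0; others were its size factors, the 8 libraries of each comparison, other count filters, robust fitting, a correction for length and GC content, a threshold of 0.05, and leaving out each mouse. Fits with libraries left out together and the relations between members and markers were added after seeing the data. The edgeR and DESeq2 fits were tested on simulated data. Mice carry different numbers in each group, so none were paired. Correlations used 100000 permutations within groups and log2 CPM with a prior count of 2.

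The members and lists were chosen with earlier results of these data known. The genes named were the members, other store genes called in the averaged training comparison, the 3 genes most like each member called and each family's most abundant member, and Egr2; exceptions are stated. Itprip, Strit1, Arln, Erln and Stimate were not matched by symbol. The median SE per gene was 0.10 on the log2 scale between groups of 4 and 0.07 for averages. Promoter windows are from RefSeq.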

Additional observations from a re-analysis of the deposited data

Results flagged for a closer look

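In 3 of 40 groups of 4 mice (10 genes in 4 groups), 1 mouse stood apart from the other three by Dixon's ratio, the gap to its nearest neighbour divided by the range; chance gives about 5%, or 2 of 40. Mouse 20 of HC_water had 416 CPM of Itpr1 against 539 to 551 CPM in its group (ratio 0.911). Mouse 11 of HC_water had 4.38 CPM of Itpr3 against 4.97 to 5.04 CPM (ratio 0.893). Mouse 22 of MWM_Caffeine had 179.8 CPM of Stim2 against 155 to 158 CPM (ratio 0.885).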

How the results depend on the processing

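The count of 1 member called in the averaged training comparison was kept under DESeq2 (Atp2a3 adjusted p = 0.0412), DESeq2 size factors, both count filters, robust fitting and the length and GC correction. It was 0 at an adjusted p under 0.05, 0 without mice 6 of HC_water and 17 of HC_Caffeine together, and 3 without mice 8, 11 and 20 of HC_water together (Atp2a3, with Ryr1 at 0.38, adjusted p = 0.0933, and Ryr2 at 0.36, adjusted p = 0.0545), where HC_water is 1 mouse, assumed to vary like the other groups. Leaving out 1 mouse gave 0 to 2. Without mouse 14 of HC_Caffeine, which had the highest Ryr2 of its group, Ryr2 was called (0.23, adjusted p = 0.0950). In the other 6 comparisons 0 members were called under every alternative run. Of 1790 member differences set beside the main fit, the threshold of 0.05 included, 46 called in neither fit moved by more than 1 SE. Moves of called values were not counted. Separately, 4 became called, 11 were no longer called and 0 called values changed sign. The 11 other store genes called became 18 with DESeq2 and 7 at an adjusted p under 0.05, and 9 to 19 when 1 mouse was left out (19 without mouse 8 of HC_water), while the 2590 of all genes called became 3002, 1384 and 1783 to 3191 (3191 without that mouse). Homer1, Hspa5, Tmem38b, Plcd1 and Pdia4 were called under all 25 alternatives, Orai3 under 9 and Erp44 under 11. The cause of these changes was not tested. No paired analysis was possible because no mouse number occurs in more than 1 group. Depth was lowest for Itpr3 (127 to 278 counts per library) and Atp2a3 (191 to 443).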
